A study of Homo sapiens with 6 samples.

Results

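The 37 genes described here make cholesterol, sense and move it, or make fatty acids under the control of the SREBP transcription factors. They were listed by gene symbol for their roles in these pathways, with earlier results of these data known. All 37 were found among the 58051 genes of the deposited count table, and all 37 passed the filter on low counts and are among the 19574 genes tested. They comprised 7 genes of the mevalonate steps, 11 genes of the steps from farnesyl diphosphate to cholesterol, 5 genes of SREBP control, 6 genes of sterol transport and of the LXR nuclear receptors, and 8 genes of fatty acid synthesis.

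RNA was measured by poly(A)-selected sequencing in HEK293T cells (an established line from embryonic kidney, with SV40 T antigen), 48 hours after transient transfection. The control group (CTRL, 3 libraries) received the empty plasmid pcDNA3.1-, and the other group (PPK1, 3 libraries) received pcDNA3.1-ppk1, which expresses a bacterial polyphosphate kinase that builds long chains of phosphate. The protocol also names a tagged form of the plasmid (pcDNA3.1-HAppk1+) and gives only a range of plasmid amounts, tying neither to a library. The libraries are lettered B, C and D in both groups, and the design text matches libraries of the same letter as biological replicates. Both groups went through lipid-based transfection and were then grown in OptiMEM, so these conditions were shared. The fraction of cells that took up plasmid is not given, and the ppk1 transcript was not analysed here. Library totals ran from 40851783 to 67122986 counts.

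Of 6 genes usually expressed in HEK293 cells (PAX2, NEFL, NEFM, VIM, KRT8 and KRT18), all 6 passed the filter. Levels are given in CPM (counts per 1e6 of the library total after TMM scaling). The summed level of the 6 genes was 763 to 887 CPM with empty vector and 735 to 781 CPM with ppk1. NEFL was lower with ppk1 and KRT18 higher (adjusted p of 0.00793 and 0.0113 in edgeR's quasi-likelihood test). Markers of blood cells and of endothelium summed to at most 0.318 CPM in any library. Of the fibroblast markers, COL1A1 accounted for nearly all of a sum of 16.4 to 21.6 CPM. Of the 4 hepatocyte markers, only ALB passed the filter. TTR, SERPINA1 and APOA2 held at most 4 counts in any library. ALB was at 0.632 CPM with empty vector and 0.237 CPM with ppk1. It was called lower (log2 fold change -1.37, edgeR adjusted p 0.00261), on 22 to 34 counts per control library and 9 to 15 per PPK1 library. The part of these differences in the lipid gene results was not tested.

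Cells build cholesterol from acetyl-CoA through mevalonate, isoprenoids, squalene and lanosterol. When sterols run low in the endoplasmic reticulum, the escort protein SCAP carries the SREBP precursors to the Golgi, where they are cut to active transcription factors that switch on the synthesis genes. The INSIG proteins hold this complex back when sterols are plentiful. Oxysterols, made when sterols are in excess, activate the LXR receptors, which raise the genes of sterol export.

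With ppk1, 7 genes of cholesterol and fatty acid synthesis rose, and 3 genes of sterol export and its receptor and 1 of synthesis fell. The sterol exporters ABCA1 and ABCG1, the LXR gene NR1H3 and the sterol desaturase gene SC5D fell. The fatty acid synthase gene FASN and 6 cholesterol synthesis genes (ACAT2, HMGCS1, FDPS, LSS, NSDHL and EBP) rose. None of the 7 rises was called with no replicate block (0 by edgeR), and without replicate C FASN was the 1 rise called. In edgeR's quasi-likelihood test with the replicate letter as a block, 11 of the 37 genes had a Benjamini-Hochberg adjusted p below 0.05 and are called here (29.7%), against 9.08% of all tested genes; since the list was drawn up with earlier results known, this share is a description. Levels were higher for 7 of them (4.04% of all tested genes were called higher) and lower for 4 (5.04%). The falls reached a log2 fold change of -1.03, whereas the rises lay between 0.24 and 0.47. All 11 had the same direction in each of the 3 pairs, which held for 20 of the 37 and for 43.8% of all tested genes.

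The ranges of the groups did not overlap for 17 of the 37 genes. PPK1 libraries were all above the control libraries for 11 genes (13.0% of all tested genes) and all below them for 6 (12.6%). The median log2 fold change of the 37 was 0.05, near the median of all tested genes (0.01), and 26 genes were not called. In bulk RNA, a change in the number of expressing cells and a change in RNA per cell cannot be told apart.

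**Figure D1:**
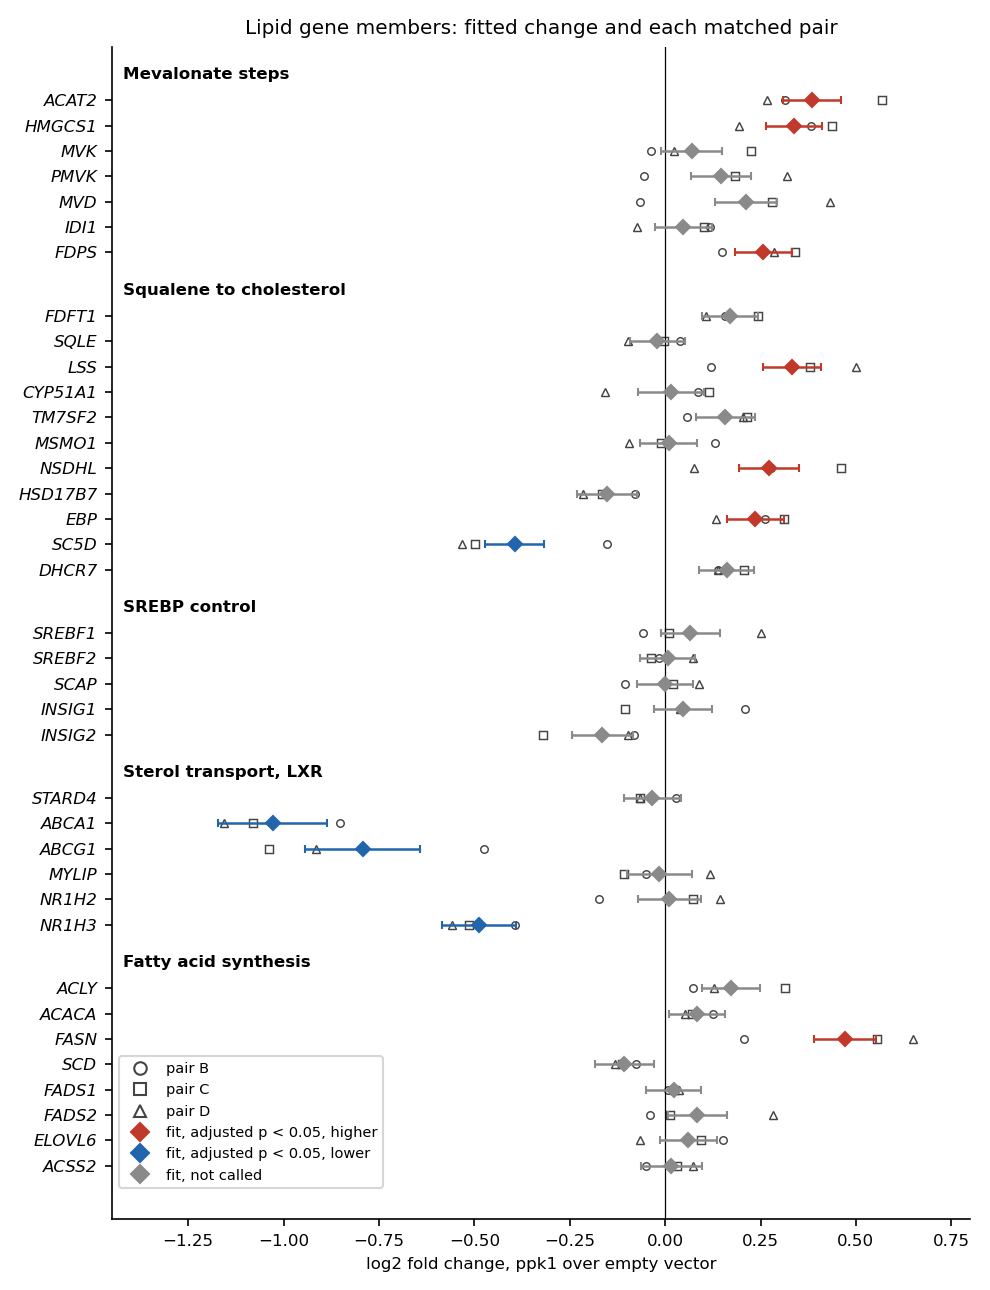
Fitted log2 fold change (ppk1 over empty vector; x axis) of each of the 37 genes (y axis, by role), as a diamond with its standard error, and the values of pairs B, C and D as open symbols. Red and blue diamonds passed an adjusted p of 0.05; ABCA1, ABCG1 and NR1H3 lie farthest to the left and FASN farthest to the right.

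The genes that control SREBP did not pass the test. SREBF2, which encodes the factor that chiefly drives cholesterol synthesis, was at 232, 218 and 206 CPM in control libraries B, C and D and at 230, 213 and 216 CPM in PPK1 libraries. SREBF1, which encodes the factors that chiefly drive fatty acid synthesis, was at 61.9, 64.35 and 50.8 CPM against 59.5, 64.8 and 60.45 CPM. The groups overlapped for both. Their log2 fold changes were 0.01 (SE 0.07) and 0.07 (SE 0.08).

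SCAP, the escort protein gene, had a log2 fold change of 0.00 (SE 0.07), with overlapping groups. INSIG1, itself a sensitive SREBP target, was at 430, 421 and 441 CPM with empty vector and at 497, 391 and 453 CPM with ppk1. The PPK1 libraries spread to both sides of the controls, with pair values of 0.21, -0.11 and 0.04, and the log2 fold change was 0.05 (SE 0.08). INSIG2 was lower in each pair (-0.08, -0.32 and -0.10), with overlapping groups and an adjusted p of 0.194. These are RNA levels; cleavage of the SREBP proteins was not measured.

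Among the 7 members of the mevalonate steps, 3 passed the test as rises and 0 as falls. Across the whole tested set the shares were 4.04% for rises and 5.04% for falls. All 7 log2 fold changes lay above 0, with a median of 0.21, against a median of 0.0149 for the whole tested set. ACAT2 (ENSG00000120437, chromosome 6) encodes the cytosolic thiolase that joins acetyl-CoA units at the head of the pathway. It was at 74.6, 82.5 and 87.4 CPM in control libraries B, C and D and at 92.8, 122 and 105 CPM in PPK1 libraries. Every PPK1 library exceeded every control library. The log2 fold change was 0.38 (SE 0.08, edgeR adjusted p 4.5e-04).

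HMGCS1 (ENSG00000112972, chromosome 5), the HMG-CoA synthase gene and a classical SREBP target, was at 132, 134 and 159.5 CPM in controls. With ppk1 it was at 172, 182 and 182 CPM, again without overlap. Its log2 fold change was 0.34 (SE 0.07, edgeR adjusted p 0.00153). The rise was smaller in pair D (0.19) than in pairs B (0.38) and C (0.44), where the control level was lower.

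FDPS (ENSG00000160752, chromosome 1) encodes farnesyl diphosphate synthase, which makes the isoprenoid shared by sterols, dolichol and prenylated proteins. Control libraries held 201, 193 and 192 CPM and PPK1 libraries 222, 245 and 234 CPM, a gap well outside the control spread. The log2 fold change was 0.26 (SE 0.07, edgeR adjusted p 0.018). The other mevalonate genes did not pass. MVD, the decarboxylase gene, came nearest (log2 fold change 0.21, SE 0.08, adjusted p 0.089), with pair values of -0.07, 0.28 and 0.43. The kinase genes MVK and PMVK (0.07 and 0.15 on the log2 scale) and the isomerase gene IDI1 (0.05) had overlapping groups.

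The 11 genes from farnesyl diphosphate to cholesterol are labelled as squalene to cholesterol in the figures. Of these 11, 3 were called higher and 1 lower (4.04% and 5.04% of all tested genes). Their median log2 fold change was 0.16. LSS (ENSG00000160285, chromosome 21) encodes lanosterol synthase, which closes the sterol rings. Its control libraries held 117, 122 and 102 CPM and its PPK1 libraries 127, 159 and 144 CPM. The lowest PPK1 library lay just above the highest control. The log2 fold change was 0.33 (SE 0.08, edgeR adjusted p 0.00265), with pair values of 0.12, 0.38 and 0.50.

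NSDHL (ENSG00000147383, chromosome X) encodes a dehydrogenase that takes part in removing methyl groups from lanosterol. It was at 42.35, 44.8 and 47.7 CPM in controls and at 51.3, 61.7 and 50.2 CPM with ppk1. The groups did not overlap, although pair D showed little difference (0.07). The log2 fold change was 0.27 (SE 0.08, edgeR adjusted p 0.0186). EBP (ENSG00000147155, chromosome X), the sterol isomerase gene, was at 53.1, 59.3 and 60.9 CPM against 63.8, 73.5 and 66.8 CPM. Its log2 fold change was 0.24 (SE 0.08, edgeR adjusted p 0.0372), the largest adjusted p of the 11 called genes.

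SC5D (ENSG00000109929, chromosome 11) encodes the sterol desaturase that acts directly after EBP, and it changed in the other direction. Control libraries held 112, 129 and 148 CPM and PPK1 libraries 101, 91.6 and 102 CPM. All PPK1 libraries lay below all controls. The log2 fold change was -0.39 (SE 0.08, edgeR adjusted p 3.9e-04), and the pair values were -0.15, -0.50 and -0.53. Adjacent steps of the pathway therefore differed in sign. FDFT1 (squalene synthase), TM7SF2 and DHCR7 (sterol reductases) had higher values in every pair and no overlap between groups, with log2 fold changes of 0.16 to 0.17 and adjusted p-values of 0.14 to 0.208. HSD17B7, which works with NSDHL, was lower in every pair, also with no overlap between groups (log2 fold change -0.15, edgeR adjusted p 0.237). In stretches of 50 bases, 14.2% of the HSD17B7 transcript sequence also occurs in other annotated genes.

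SQLE, CYP51A1 and MSMO1 encode the oxygen-dependent enzymes that epoxidise squalene and demethylate lanosterol. Their log2 fold changes were -0.02 (SE 0.07), 0.02 (SE 0.09) and 0.01 (SE 0.08), and their pairs differed in sign. SQLE held 191, 195 and 210 CPM in controls and 196, 195 and 197 CPM with ppk1. The value of CYP51A1 is uncertain, because 78.6% of its transcript sequence, in stretches of 50 bases, also occurs in other annotated genes.

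**Figure D2:**
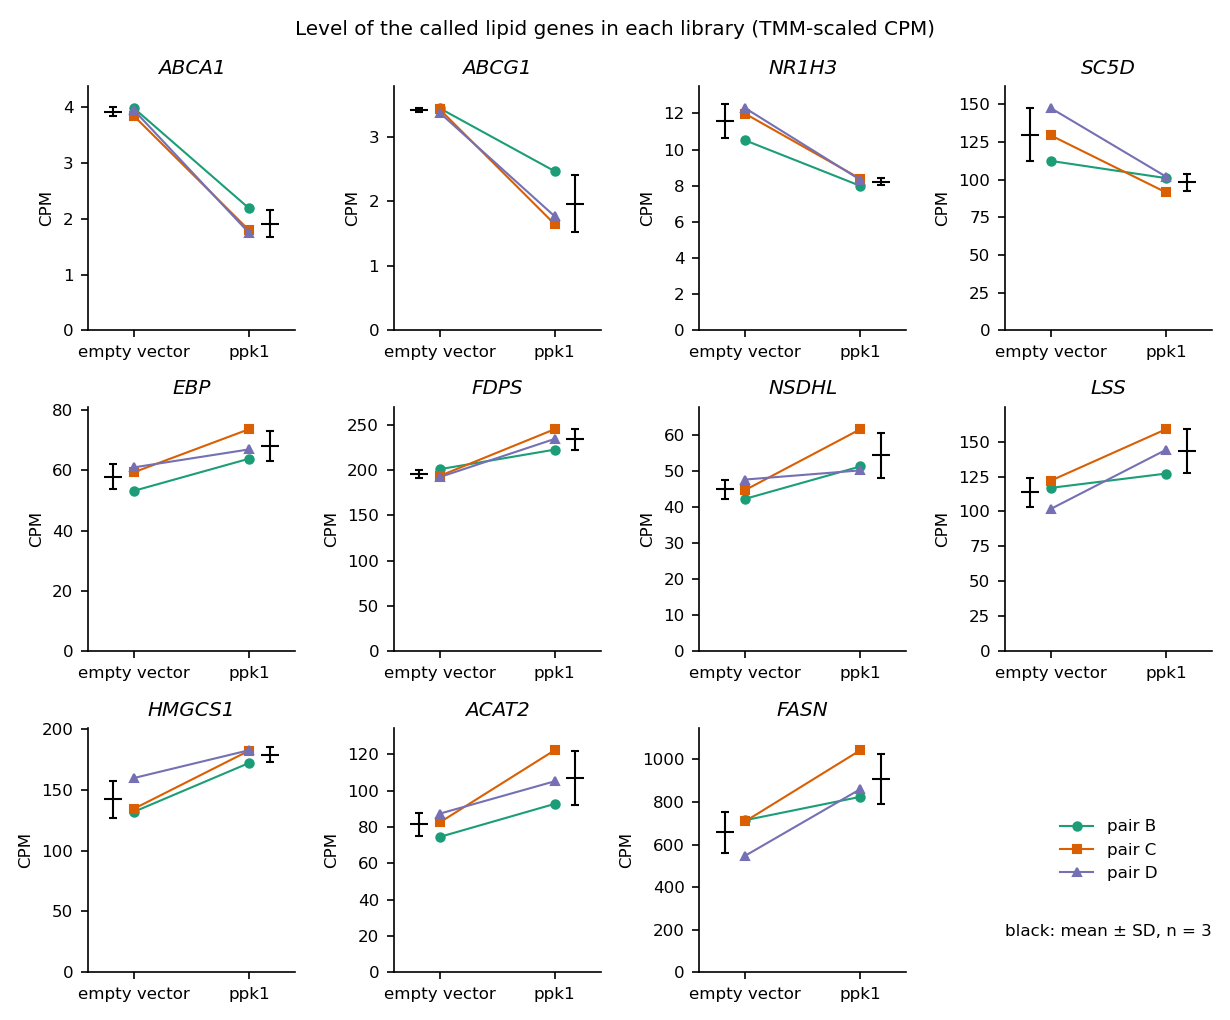
Level in CPM (y axis, from 0) of the 11 called genes in each library, for empty vector and ppk1 (x axis); lines join matched libraries and black bars give mean ± SD (n = 3). In every panel the PPK1 libraries lie wholly above or wholly below the controls, and ABCA1 and ABCG1 show a tight control group near 4 and 3 CPM.

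The promoters of these genes were read for the sites of the factors that SREBP works with. RefSeq windows (GRCh38.p14), each covering 250 bases before and 50 after a transcript start, were at hand for 32 of the 37 genes; ACAT2, FDFT1, SQLE, ABCG1 and FASN had none in the table. The letters CCAAT (bound by NF-Y, a partner of SREBP), on either strand, occurred in 23 of the 32 genes (71.9%), counting all windows of a gene, and in 42.9% of 11458 tested genes with a window. Of the called genes with a window, all 5 that rose had the letters, as did 2 of 3 that fell and 16 of 24 that were not called. A match is not a measured binding site.

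The upstream 200 bases of the 5 genes that rose are shown to let their CCAAT letters be seen, in capitals (CCAAT, or ATTGG where it lies on the opposite strand). The sequences run 5′ to 3′ in the direction of transcription and end at the base before the start: HMGCS1 at chr5:43313413-43313612 (minus strand), FDPS at chr1:155308666-155308865 (plus strand), LSS at chr21:46228775-46228974 (minus strand), NSDHL at chrX:152830863-152831062 (plus strand) and EBP at chrX:48521608-48521807 (plus strand). In NSDHL a forward and a reverse match overlap. HMGCS1, FDPS and EBP hold 2, 3 and 3 matches in the stretch shown, NSDHL 4 and LSS 1.
HMGCS1: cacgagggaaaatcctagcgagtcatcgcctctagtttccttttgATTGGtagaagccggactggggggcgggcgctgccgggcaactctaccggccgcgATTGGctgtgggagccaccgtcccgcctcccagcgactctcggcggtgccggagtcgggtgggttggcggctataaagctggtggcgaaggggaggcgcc
FDPS: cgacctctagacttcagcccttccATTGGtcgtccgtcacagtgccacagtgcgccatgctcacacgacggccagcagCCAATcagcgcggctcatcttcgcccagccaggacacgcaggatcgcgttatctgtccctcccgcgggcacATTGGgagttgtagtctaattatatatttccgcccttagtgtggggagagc
LSS: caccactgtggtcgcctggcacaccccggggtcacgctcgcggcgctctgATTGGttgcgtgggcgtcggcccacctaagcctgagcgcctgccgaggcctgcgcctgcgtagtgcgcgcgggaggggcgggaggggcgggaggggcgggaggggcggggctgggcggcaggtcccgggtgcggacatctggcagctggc
NSDHL: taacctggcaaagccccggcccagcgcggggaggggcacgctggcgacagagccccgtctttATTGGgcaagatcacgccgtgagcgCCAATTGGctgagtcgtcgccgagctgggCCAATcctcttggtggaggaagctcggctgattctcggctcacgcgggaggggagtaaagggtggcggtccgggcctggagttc
EBP: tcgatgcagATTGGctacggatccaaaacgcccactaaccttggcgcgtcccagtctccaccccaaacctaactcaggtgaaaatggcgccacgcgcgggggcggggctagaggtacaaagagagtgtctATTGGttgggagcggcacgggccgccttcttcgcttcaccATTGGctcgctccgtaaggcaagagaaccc

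A sterol regulatory element in the strict form TCACNCCAC was found, on either strand, in 1 of the 32 genes and in 1.48% of tested genes with a window. The gene was SREBF2, which was not called. SREBF2 is shown for that match, and SC5D and ABCA1 as genes that fell: SREBF2 at chr22:41832905-41833104 (plus strand), SC5D at chr11:121292571-121292770 (plus strand) and ABCA1 at chr9:104928156-104928355 (minus strand). The capitals mark TCACCCCAC in SREBF2 and CCAAT letters in SREBF2 and SC5D. The ABCA1 stretch has neither motif and stays in lower case. The Sp1 box GGGCGG occurred in 31 of the 32 genes (76.1% of tested genes) and the E-box CACGTG in 5 (12.4%). A missing match says only that these letters are not in the window.
SREBF2: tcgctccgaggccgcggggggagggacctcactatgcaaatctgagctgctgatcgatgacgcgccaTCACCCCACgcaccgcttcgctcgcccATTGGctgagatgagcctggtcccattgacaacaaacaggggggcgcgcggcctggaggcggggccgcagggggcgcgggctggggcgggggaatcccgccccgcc
SC5D: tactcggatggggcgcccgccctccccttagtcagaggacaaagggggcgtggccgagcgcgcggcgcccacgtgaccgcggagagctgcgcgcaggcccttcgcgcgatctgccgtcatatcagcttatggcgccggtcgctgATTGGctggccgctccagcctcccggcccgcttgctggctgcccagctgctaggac
ABCA1: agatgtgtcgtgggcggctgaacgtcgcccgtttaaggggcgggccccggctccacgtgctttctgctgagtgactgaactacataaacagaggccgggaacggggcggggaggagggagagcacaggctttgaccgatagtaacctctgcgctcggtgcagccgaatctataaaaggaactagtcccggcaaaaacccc

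On the log2 scale, the 3 largest changes of the list in the reported fit were those of the sterol exporters ABCA1 and ABCG1 and the receptor gene NR1H3. ABCA1 (ENSG00000165029, chromosome 9) encodes the transporter that loads cholesterol and phospholipid onto apolipoproteins, and it is a direct LXR target. It was at 3.98, 3.84 and 3.94 CPM in control libraries B, C and D and at 2.19, 1.79 and 1.75 CPM with ppk1. These levels rest on 161 to 210 counts per control library and 73 to 146 per PPK1 library. The control libraries were nearly equal and all PPK1 libraries lay far below them. ABCA1 fell to 49.0% of its control level and thus fell by 1.03 on the log2 scale (SE 0.14, edgeR adjusted p 1.0e-06), and the pair values were -0.85, -1.08 and -1.16.

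ABCG1 (ENSG00000160179, chromosome 21) encodes a transporter that passes cholesterol to lipoprotein particles and is also an LXR target. Its control libraries held 3.45, 3.43 and 3.38 CPM and its PPK1 libraries 2.47, 1.65 and 1.77 CPM. The groups were apart, with library B of PPK1 nearest to the controls. ABCG1 fell to 57.7% of control (log2 fold change -0.79, SE 0.15, edgeR adjusted p 2.2e-04).

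NR1H3 (ENSG00000025434, chromosome 11) encodes LXR alpha, which in human cells can act on its own promoter. It was at 10.5, 12.0 and 12.3 CPM in controls and at 7.99, 8.39 and 8.33 CPM with ppk1, without overlap. NR1H3 fell to 71.3% of control (log2 fold change -0.49, SE 0.10, edgeR adjusted p 4.8e-04). Its partner NR1H2, which encodes LXR beta, was at 24.2, 21.3 and 20.4 CPM against 21.5, 22.4 and 22.5 CPM. The NR1H2 groups overlapped and the log2 fold change was 0.01 (SE 0.08).

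MYLIP, an LXR target whose product marks lipoprotein receptors for degradation, was at 17.3, 17.6 and 16.6 CPM in controls and at 16.7 and 16.3 CPM in PPK1 libraries B and C, with library D the highest of the 6. Its log2 fold change was -0.02 (SE 0.09), so it did not show the fall of ABCA1 and ABCG1; the difference between these genes was not tested. SREBF1, FASN and SCD are LXR targets as well in many cells, and they are given with their own groups. STARD4, a sterol carrier gene under SREBP control, had a log2 fold change of -0.03 (SE 0.07). In this group 3 of 6 genes were called lower and 0 higher (5.04% and 4.04% of all tested genes).

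ABCA1, ABCG1 and NR1H3 were called under all 10 alternatives, with log2 fold changes of -1.13 to -0.97, -0.996 to -0.678 and -0.54 to -0.47. SC5D and FASN were each called under 9 of 10, and SC5D had an adjusted p of 0.125 without replicate C. With no replicate block, 0 of the 7 rises were called by edgeR, while 15 of the 37 members (11 higher) and 3638 of the 19574 tested genes had an unadjusted p below 0.05. The adjusted p-values of the 7 ran from 0.0507 (FASN) to 0.148 (EBP). Without replicate C, FASN was the 1 rise still called (adjusted p 0.00891), and the other 6 had adjusted p-values of 0.201 to 0.696.

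The number of called members is given here beside the share of all genes called under the same setting. With no replicate block 4 members were called (2.40% of all tested genes), and without replicate C also 4 (2.06%). Without replicate B (12.5%), without replicate D (9.06%), with RLE scaling (8.73%) and with a mean of at least 50 counts (8.96%), 11 were called each time. Upper-quartile scaling (6.92%) and no low-count filter (4.57%) each gave 10. DESeq2 gave 9 (4.36%), and offsets for GC content and length gave 12 (16.9%).

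**Figure D3:**
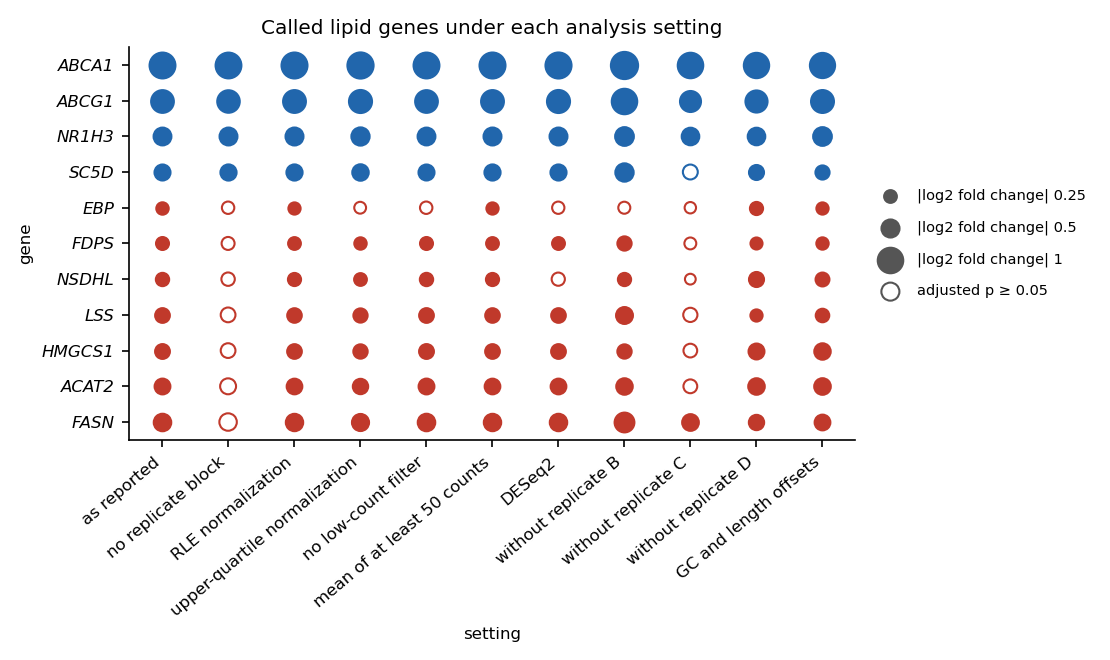
Log2 fold change (circle area; blue lower, red higher with ppk1) of the 11 called genes (y axis) in the reported fit and under 10 alternatives (x axis); open circles have an adjusted p of at least 0.05. ABCA1, ABCG1 and NR1H3 are filled throughout, while the 7 rises are all open with no replicate block.

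In fatty acid synthesis 1 of 8 genes was called higher and 0 lower. The share called in this group, 12.5%, was near the 9.08% of all tested genes. FASN (ENSG00000169710, chromosome 17) encodes fatty acid synthase, the enzyme that assembles palmitate. It was at 715, 709 and 548 CPM in control libraries B, C and D and at 824, 1043 and 860 CPM with ppk1. The groups did not overlap, and control library D was the lowest of all. The log2 fold change was 0.47 (SE 0.08, edgeR adjusted p 4.9e-05), with pair values of 0.21, 0.56 and 0.65. It was the largest rise of the list on the log2 scale. In CPM it was also the largest difference, 251.8 CPM, against falls of 2.01 CPM for ABCA1 and 1.46 CPM for ABCG1.

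The enzymes on either side of FASN did not pass the test. ACLY, which makes cytosolic acetyl-CoA from citrate, had a log2 fold change of 0.17 (SE 0.08, adjusted p 0.152), with all PPK1 libraries above all controls. ACACA, which commits acetyl-CoA to fatty acids, had 0.08 (SE 0.07), and ACSS2, which makes acetyl-CoA from acetate, 0.02 (SE 0.08). SCD, the main desaturase gene, was at 1124, 1162 and 1191 CPM in controls and at 1065, 1076 and 1088 CPM with ppk1. Every PPK1 library lay below every control, but the log2 fold change was only -0.11 (SE 0.08, adjusted p 0.423). The desaturase genes FADS1 and FADS2, neighbours on chromosome 11, had 0.02 and 0.08, and the elongase gene ELOVL6 had 0.06 on the log2 scale.

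Levels between genes were compared per length, as CPM per kilobase of annotated exon. In control libraries SCD was the most abundant (216 CPM per kilobase), followed by INSIG1 (118), ACLY (106) and FASN (70.2). ABCA1 (0.345), ABCG1 (0.559) and NR1H3 (2.56 CPM per kilobase) were the 3 lowest of the 37. The called falls in export and receptor genes thus lay in the least abundant members. Except for these 3 genes, every member had at least 678 counts in each library.

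A further 53 lipid genes outside the list were read in the same fit: SREBP cleavage and sterol-regulated degradation (8), isoprenoid branches (8), cholesterol movement and storage (11), and fatty acid activation, elongation and glycerolipids (26). Of these, 51 passed the filter and 0 were called by edgeR, against 9.08% of all tested genes. This list too was drawn up with earlier results of these data known, so its counts are a description. An unadjusted p below 0.05 was found for 6 (3 higher and 3 lower), against 23.8% of all tested genes. DESeq2 also called 0 (4.36% of all genes it tested), with 4 at an unadjusted p below 0.05 (2959 among all genes). Other alternatives called some, given here beside the share of all tested genes. There was 1 with upper-quartile scaling (6.92%), 2 without replicate B (12.5%) and 1 without replicate D (9.06%). Offsets for GC content and length gave 6 (16.9%). The smallest adjusted p was 0.0597, for MBTPS2, the protease gene that makes the second cut in SREBP (log2 fold change -0.22, SE 0.08). The median log2 fold change was 0.02. CH25H and ACSL5 did not pass the filter.

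**Figure D4:**
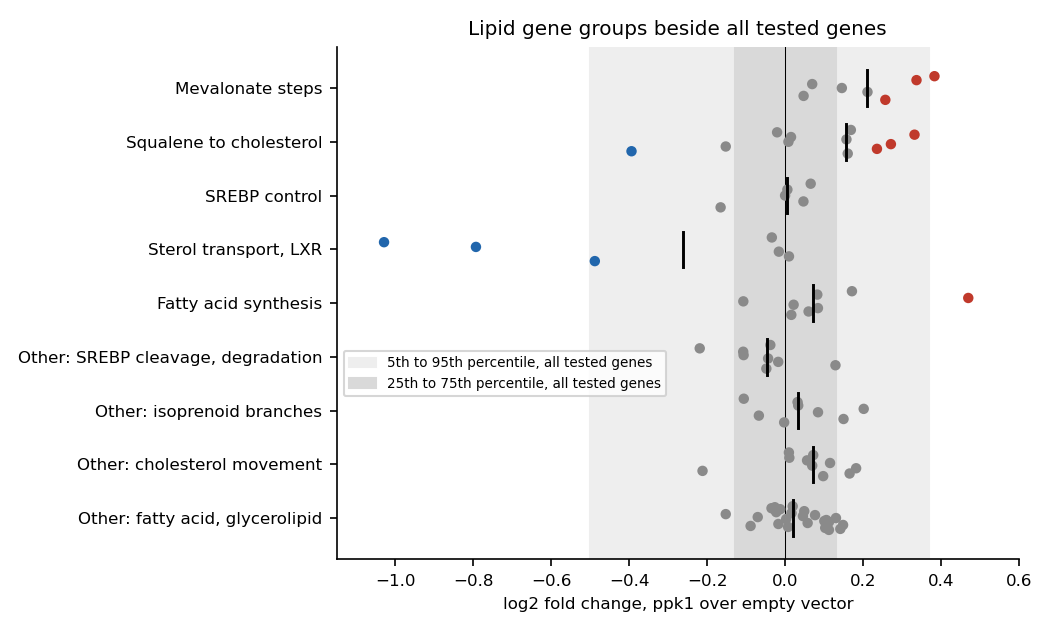
Log2 fold change (ppk1 over empty vector; x axis) of single genes, by role for the 37 genes and for the 51 tested other lipid genes (y axis); black bars are medians, and the shading gives percentiles of all tested genes (5th to 95th, -0.50 to 0.37). The SREBP control group holds no called gene (red higher, blue lower), and the other lipid genes all lie between -0.22 and 0.20.

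Overlapping annotation bears on some of these values, because the counting of strand is not stated. In GENCODE release 29, exons of 15 of the 37 genes overlap a gene on the opposite strand and exons of 4 overlap one on the same strand. Among the called genes, ABCA1, ABCG1, SC5D, NSDHL, EBP and FASN overlap none. Exons of ACAT2 (4.299 kb in all) overlap opposite-strand genes by 2996 bases, summed over SOD2, SOD2-OT1 and TCP1. A base that overlaps several of these genes counts more than once in this sum. Among these genes TCP1 was far more abundant than ACAT2, at 563 CPM in controls and 621 CPM with ppk1. TCP1 and SOD2 were not called, with log2 fold changes of 0.14 and 0.11. The part of this overlap in the ACAT2 result was not tested. NR1H3 shares 189 bases with ACP2, which was called higher (log2 fold change 0.30, edgeR adjusted p 0.0126), the opposite direction to NR1H3. HMGCS1, LSS and FDPS overlap antisense genes. The one of FDPS, RUSC1-AS1, was at 8.06 CPM in controls and had an adjusted p of 0.274 by edgeR. Those of HMGCS1 (703 shared bases) and LSS (570, summed over AP001468.1 and AP001469.1) were not found by symbol in the count table. The part of these overlaps in the results of HMGCS1 and LSS was not tested. For the genes on opposite strands, reads could not be told apart if strand was ignored.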

How the data were processed

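The authors deposited raw counts, whole numbers per gene for 6 libraries; each column was matched to its sample by title, and 0 columns were left over. Per the submitters' processing notes, bcl2fastq 2.20, Trimmomatic, STAR, HTSeq, edgeR, DESeq, Cufflinks and Cuffdiff were used; their settings, the genome build, the annotation release and the strand setting are not given in the sources used here. Per the labels' protocols, libraries were poly(A)-selected and directional.

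The counts were tested with edgeR 4.0.16 in R 4.3.3: filterByExpr (minimum count 10), TMM scaling, the quasi-likelihood test with the replicate letter as a block, and Benjamini-Hochberg adjustment over the 19574 tested genes at 0.05. The block follows the design text, which calls same-letter libraries matched. After subtracting group means, the matched libraries correlated across all tested genes at 0.109 (B), 0.135 (C) and 0.0476 (D). Control and PPK1 libraries of different letters correlated at -0.120 to -0.005. Subtracting a mean over only 3 libraries pushes these values below 0 when the matched ones lie above it. The contrast is therefore not a separate check of the block. Over the 12245 genes with the higher mean counts, the matched libraries correlated at 0.239 (B), 0.399 (C) and 0.247 (D). CPM are TMM-scaled; pair values are differences of log2 CPM with a prior count of 2. The script was tested on simulated data. Chromosomes, exon lengths and overlaps came from GENCODE release 29 (98.96% of identifiers found), and promoter sequences from RefSeq (GRCh38.p14).

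The members and lists were chosen with earlier results of these data known. Every member is accounted for; library values are given for called members and for steps that the text turns on, and other lipid genes were to be named only if called (up to 6, by adjusted p), so MBTPS2, CH25H and ACSL5 were named after their values were seen. Alternatives were no replicate block, RLE and upper-quartile scaling, no filter, a mean of at least 50 counts, DESeq2 1.42.0, offsets for GC content and length, and leaving out each replicate pair. A count of 0 allows up to 3 counts, 0.0447 to 0.0734 CPM.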

Additional observations from a re-analysis of the deposited data

How the results depend on the processing

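The replicate block and replicate C decided most calls, and the cause was not tested. With no replicate block, 470 genes of all tested were called in place of 1777 (2.40%), and of the 37 members 4 were called in place of 11, 0 higher in place of 7 (15 members, 11 of them higher, and 3638 of 19574 tested genes had an unadjusted p below 0.05) and the same 4 lower. Leaving out each pair gave 4 to 11 called members, 1 to 7 higher and 3 to 4 lower, with 406 to 2435 calls among all tested genes; the lowest values were without replicate C (2.06% of tested genes called). DESeq2 called 754 genes, and the offsets for GC content and length called 3292 and moved the members' median log2 fold change from 0.0479 to 0.0779. Of the other lipid genes, 1 was called with upper-quartile scaling, 6 with the offsets for GC content and length, and 0 to 2 when a pair was left out, against 0. Of 110 values of the called members under the alternatives, 91 kept direction and call, 19 kept direction without the call, and 0 changed direction. Besides the losses given with the results, EBP was not called with upper-quartile scaling, with no filter, with DESeq2 or without replicate B, and NSDHL was not called with DESeq2. MVD was called without replicate B and FDFT1 with the offsets.

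Among members that were not called, log2 fold changes near 0 changed sign under some alternatives. With the offsets, this held for SQLE (0.055), SREBF1 (-0.013), SREBF2 (-0.036), SCAP (-0.061), STARD4 (0.050), MYLIP (0.021) and NR1H2 (-0.056). With upper-quartile scaling, this held for CYP51A1 (-0.0063), MSMO1 (-0.013), SREBF2 (-0.016), SCAP (-0.022), NR1H2 (-0.012) and ACSS2 (-0.0055). With RLE scaling, this held for SREBF2 (-0.0009) and SCAP (-0.0068). With the mean filter, this held for SREBF2 (-0.0003) and SCAP (-0.0062). With no replicate block, this held for SCAP (-0.0011). With DESeq2, this held for SCAP (-0.0036). When a pair was left out, values ran from -0.0075 to 0.12 for MVK, from -0.033 to 0.079 for CYP51A1, from -0.054 to 0.040 for MSMO1, from -0.045 to 0.13 for SREBF1, from -0.047 to 0.028 for SREBF2, from -0.065 to 0.053 for SCAP, from -0.035 to 0.12 for INSIG1, from -0.0995 to 0.031 for MYLIP, from -0.076 to 0.11 for NR1H2, from -0.0059 to 0.028 for FADS1, from -0.034 to 0.15 for FADS2 and from -0.032 to 0.050 for ACSS2. None of these values was called. ABCA1 and ABCG1 had the fewest reads of the 37 genes, with a lowest count of 73.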
